A study of Ovis aries with 2 samples.

Results

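Cells of the connective tissue and of the vessel wall were sought in the anterior pituitary of Hu sheep by a gate on marker genes, which held 619 of 29621 barcodes. At 3 months of age 411 of 16368 barcodes entered it (2.51%, exact Clopper-Pearson 95% interval 2.28 to 2.76%). At 6 months 208 of 13253 did (1.57%, 1.36 to 1.8%). A barcode, the tag of one droplet and in most cases of one cell, was considered when it held at least 500 genes and 1000 UMIs (unique molecular identifiers, each a captured transcript). It was dropped when PRL took 25% of its UMIs or more, GH 10% or LHB 0.3%, or when 3 of the 5 endothelial genes PECAM1, CDH5, KDR, ESAM and PLVAP were detected. The fibroblast arm then required at least 3 of the 6 genes DCN, LUM, COL1A1, COL1A2, COL3A1 and PDGFRA, and the mural arm at least 3 of RGS5, PDGFRB, ACTA2, TAGLN, NOTCH3 and MYH11. The fibroblast arm alone held 272 cells at 3 months (1.66% of kept barcodes) and 140 at 6 months (1.06%). The mural arm alone held 42 (0.257%) and 49 (0.37%), and 97 (0.593%) and 19 (0.143%) met both conditions.

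The series profiled dissociated anterior lobes of this sheep breed with a droplet single-cell method, and each age was 1 library. How many animals went into a library, and of which sex, is not stated in the sources used here. No treatment or genotype separated the groups, which both went through digestion with type IV collagenase. Without a second library of either age no difference has a replicate check, no test was run, and age cannot be told apart from library. Intervals given below cover counting error of UMIs or cells only.

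Fibroblasts build the collagen and proteoglycan scaffold of a tissue. Mural cells sit on the outside of vessels, as pericytes on capillaries and as smooth muscle on larger ones. They depend on PDGF signalling from the endothelium through the receptor PDGFRB, and smooth muscle contracts through ACTA2 and the myosin MYH11. In the anterior pituitary they border the portal capillaries that bring hypothalamic signals to the hormone cells, and they lie beside folliculostellate cells and SOX2-positive stem cells, which carry epithelial genes such as CDH1 and KRT8.

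The label of the gate held for a minority of its members. Of 7 stem or folliculostellate markers, SOX2, S100B, CDH1, EPCAM, KRT8 and KRT18 among them, 3 or more were detected in 248 of the 411 members at 3 months (60.3%) and in 180 of the 208 at 6 months (86.5%). No such marker, and fewer than 3 of 6 immune genes, were found in 110 members at 3 months (26.8%, or 0.672% of kept barcodes) and in 24 at 6 months (11.5%, or 0.181%). Between these lay 48 and 4 members with 1 or 2 stem markers. The last 5 members, all at 3 months, carried 3 or more immune genes with fewer than 3 stem markers. This split was made after the values had been seen, although the 7 markers were listed earlier, and all that follows describes these sets of cells.

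**Figure D1:**
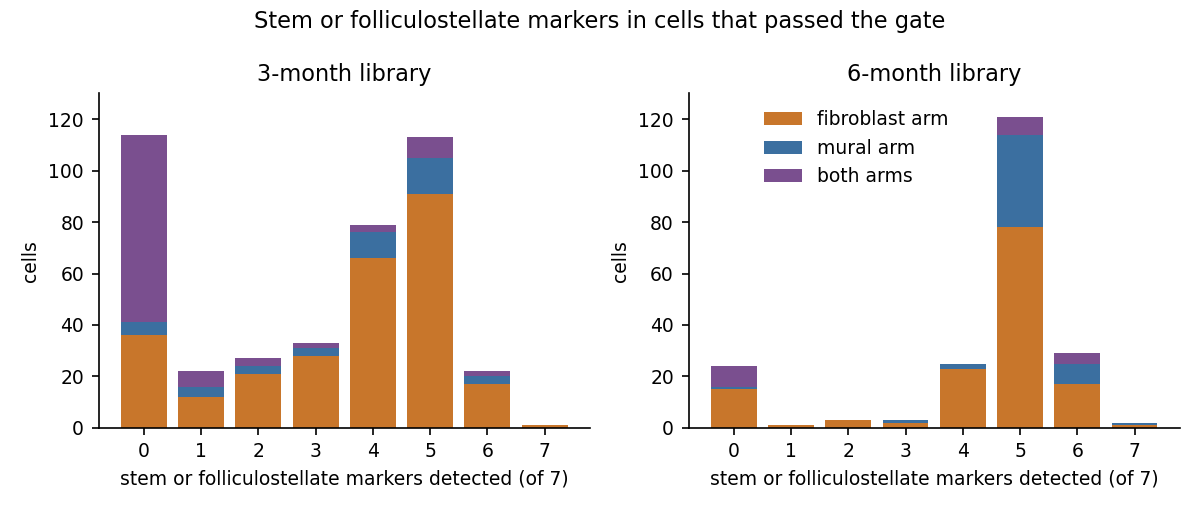
Number of cells that passed the gate (vertical axis) by the number of 7 stem or folliculostellate markers detected in them (horizontal axis), with bars stacked by arm. Cells with no marker and cells with 4 or 5 form separate groups at 3 months, and at 6 months the second group holds most of the 208 cells.

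The stem-bearing members held more UMIs in the median than the members without a stem marker. Their median depth was 10874.5 UMIs at 3 months and 22767 at 6 months, against 1965.5 and 1953.5 in the members without a stem marker. Stem markers were counted at each cell's own depth, and the split was not repeated at equal depth. The part of depth in the split was not tested. Among all barcodes with 3 or more stem markers, the share that entered the gate was 1.92% between 1000 and 5000 UMIs, 4.94% between 5000 and 10000, 11.8% between 10000 and 20000 and 23.2% above that at 3 months. The corresponding shares at 6 months were 1.01%, 2.19%, 9.5% and 29.4%. After each cell was thinned to 1000 UMIs, 13 of the 248 stem-bearing members still passed at 3 months (5.24%) and 1 of 180 at 6 months (0.556%). Of the members without a stem marker, 106 of 110 (96.4%) and 21 of 24 (87.5%) still passed. Scrublet, a doublet caller, marked 11 (4.44%) and 9 (5.0%) of the stem-bearing members, beside 5.63% and 4.3% of all kept barcodes. It marked none of the 110 and 24 cells without stem markers. The part of doublets in these sets was not tested further.

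Different gate genes carried the sets in. In the stem-bearing members at 3 months COL1A2 was detected in 236 of 248 cells and LUM in 213, while DCN was found in 60 and the fibroblast receptor PDGFRA in 4. On the mural list they had NOTCH3 in 206 cells and TAGLN in 155, while RGS5 was found in 22, PDGFRB in 3 and MYH11 in 1. In the 110 cells without stem markers DCN and LUM were each detected in 105, RGS5 in 83 and PDGFRB in 81. At 6 months PDGFRB was found in 6 and RGS5 in 1 of the 180 stem-bearing members, against 13 and 11 of the 24 without stem markers.

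The level of the gate genes separated the sets as well, which describes the choice of the cells. The 6 fibroblast genes summed to a median of 90.2 UMIs per 10000 in cells without stem markers at 3 months and 101 at 6 months, against 7.36 and 3.27 in the stem-bearing members. The 6 mural genes summed to 48.3 and 15.8, against 2.97 and 2.44. Among barcodes with fewer than 3 mural and fewer than 3 immune genes, just outside the fibroblast threshold, with 2 genes detected, lay 17 barcodes without stem markers at 3 months, and just inside it, with 3 genes, lay 5. For barcodes with 3 or more stem markers these numbers were 689 and 174. At 6 months they were 2 and 2 without stem markers, and 366 and 95 with them. With cells that also met the mural condition, 13 members without stem markers at 3 months and 4 at 6 months had exactly 3 fibroblast genes.

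**Figure D2:**
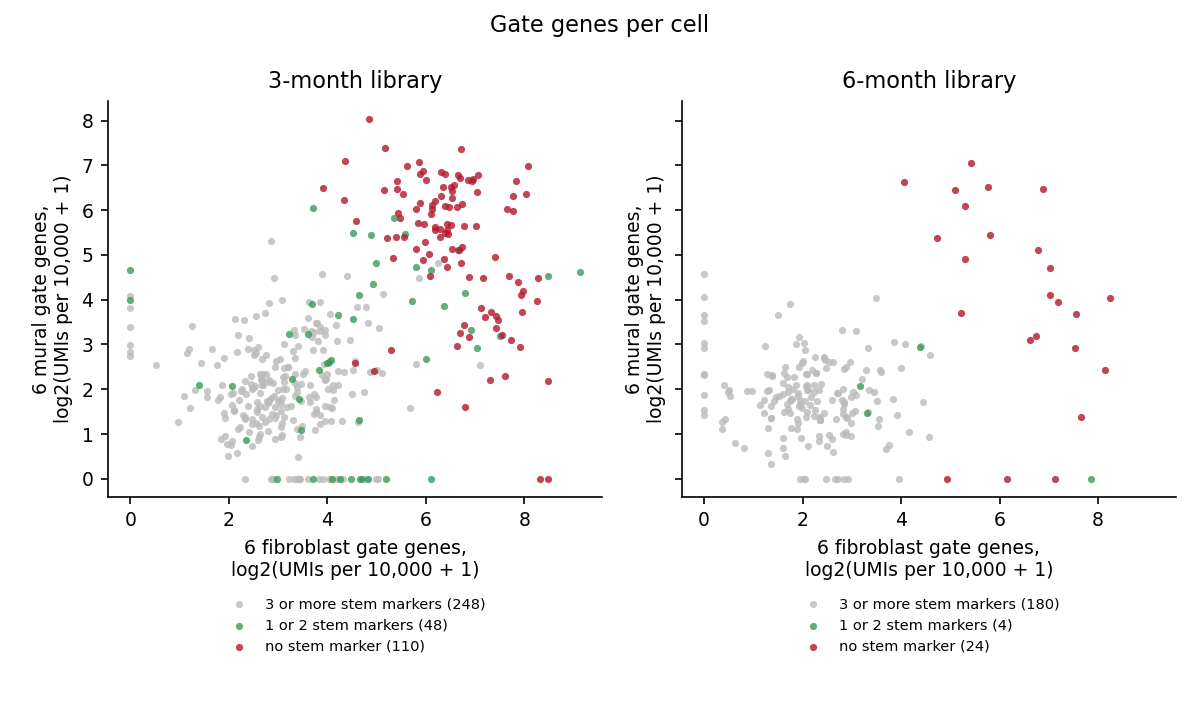
Each point is a member; the axes give its summed UMIs of the 6 fibroblast and the 6 mural gate genes, as log2 of UMIs per 10000 plus 1, and colour gives the number of stem markers. Cells without stem markers lie toward the upper right, with the 33 and 15 fibroblast-arm cells among them toward the lower right; the 5 cells with immune genes are not drawn.

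The 110 and 24 cells without stem markers formed a pool in which most cells of the first library were positive for both arms. At 3 months 33 belonged to the fibroblast arm, 4 to the mural arm and 73 to both; at 6 months 15, 1 and 8. The mural arm and the double-positive cells are called the mural side below, 77 cells at 3 months and 9 at 6 months. The name says that these cells met the mural condition, not that mural genes prevailed in them. In the fibroblast arm the 6 fibroblast genes had a median of 156 UMIs per 10000 and the 6 mural genes 9.8 at 3 months, and 116 and 8.16 at 6 months. On the mural side the medians were 80.3 and 67.1, and 41.9 and 40.8. Since 73 of the 77 and 8 of the 9 mural-side cells were double-positive, the rule itself required fibroblast genes of them.

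Fibroblast and mural markers that the gate did not use were present as well. Of 12 further fibroblast markers, 10 had UMIs at 3 months and 11 at 6 months, with a summed level of 5820 and 6100 CPM (UMIs scaled to a total of 1000000 in each set of cells). Of 11 further mural markers in the table, 10 and 9 had UMIs, summing to 2080 and 1410 CPM. On the mural side these fibroblast markers summed to 5170 and 4840 CPM and the mural markers to 2540 and 1860. In the fibroblast arm the sums were 7460 and 6780 CPM for fibroblast markers and 935 and 1170 for mural markers. In all cells without stem markers, 7 and 2 of 12 endothelial markers had UMIs (summed level 760 and 513 CPM). Of 10 immune markers 5 and 7 had UMIs (407 and 755). EMCN, a sialomucin on that endothelial list, made up most of its sum, with 152 UMIs in 74 of the 110 cells (589 CPM) and 33 in 12 of the 24 (470 CPM), against 890 and 542 CPM in the endothelial gate and 5.69 and 1.54 in the stem-bearing members. The part of endothelial RNA or cells in these values was not tested. PECAM1, an adhesion protein of endothelium, had 3 UMIs in the 110 cells and none in the 24, and CDH5, the endothelial cadherin, had none in either. PTPRC, the pan-leukocyte gene, had 0 and 1 UMI. PRL, the prolactin gene of the lactotrophs, took 1.02% and 1.56% of the UMIs, against 1.2% and 2.54% in the immune gate. The gate itself limited PRL and 5 of the 12 endothelial markers, PECAM1 and CDH5 among them. The split limited 6 of the 10 immune markers, PTPRC among them. Low values of these genes thus follow in part from the choice of cells.

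Of the 3 genes on the stem marker list that the split did not use, 2 were lower in these cells and 1 was not. SOX9, a transcription factor gene of stem cells, had 3 and 2 UMIs (11.6 and 28.5 CPM), against 302 and 461 in the stem-bearing members (90.5 and 101 CPM). FXYD6, a regulator of the sodium pump, had 152 UMIs in 71 of the 110 cells (589 CPM) and 22 in 13 of the 24 (313 CPM), against 450 and 295 CPM in the stem-bearing members. ALDH1A2, which makes retinoic acid, had 6 and 1 UMIs, against 849 and 805. Outside that list, IGSF1 had 39 UMIs in the 110 cells without stem markers (151 CPM) and 10443 in the 248 stem-bearing members (3130 CPM), and at 6 months it had 1 and 10662. The pituitary transcription factor gene LHX3 had 11 UMIs, all of them in 3 cells, and none at 6 months, against 1740 and 1825 in the stem-bearing members.

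Many matrix genes, though not all, set the cells without stem markers apart from the stem-bearing members. MGP, an inhibitor of calcification that is not in the gate, had 32700 CPM at 3 months and 23200 at 6 months, against 386 and 32.8 in the stem-bearing members. It was detected in 109 of 110 and in 24 of 24 cells. After thinning to 1000 UMIs it was still found in 97.3% and 95.8% of these cells, against 14.1% and 1.11% of stem-bearing members, 2.1% and 0.353% of the immune gate and 1.75% and 0% of the endothelial gate. The immune gate had median depths of 4380 and 4429 UMIs and the endothelial gate 2938 and 3457. OGN, a small leucine-rich proteoglycan, stood at 2100 and 1400 CPM against 10.8 and 0.44. BGN, a related proteoglycan that binds collagen, stood at 2150 and 2310 against 18.3 and 6.82. Each of these 3 genes was higher in the cells without stem markers in both libraries. Of the proteoglycan and matrix glycoprotein list without gate genes, 12 of 20 measured genes were at least 2-fold higher at 3 months. TNC, ABI3BP and LTBP1 were lower. At 6 months 13 of 19 were higher and TNC was lower. Over all measured genes 10.1% were higher and 21.9% lower at 3 months, and 23.5% and 13.5% at 6 months.

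Over all genes with at least 50 summed UMIs, 2540 of 7934 (32.0%) were at least 2-fold apart between members without and with stem markers at 3 months, 801 higher without stem markers (10.1%) and 1739 lower (21.9%). At 6 months 3297 of 8919 were (37.0%), 2093 higher (23.5%) and 1204 lower (13.5%). In the same direction in both libraries were 881 of 7728 (11.4%), 401 higher (5.19%) and 480 lower (6.21%). The median log2 ratio over all measured genes was -0.23 and 0.16. Against that background, 9 of 9 measured collagen genes were at least 2-fold higher at 3 months (median log2 ratio 4.95) and 7 of 7 at 6 months (7.02). COL1A1, COL1A2 and COL3A1 among them are gate genes, so their part in these counts follows from the choice of cells. Without the gate genes 6 of 6 measured collagens were higher at 3 months (median 4.57) and 4 of 4 at 6 months (7.66). COL6A1, a chain of the microfibrillar collagen VI that is not in the gate, had 243 UMIs in 82 of the 110 cells (942 CPM) and 16 UMIs in the stem-bearing members (4.79 CPM). At 6 months it had 72 UMIs in the 24 cells and none in the 180, a log2 ratio of at least 10.6 against a floor of 3 counts. Of the basement membrane list 10 of 11 were higher at 3 months and 9 of 10 at 6 months, among them COL4A1 at 1410 and 1310 CPM and the laminin chain LAMB1.

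Pericyte genes outside the gate were found in the same cells. KCNJ8 and ABCC9 encode the pore and the sulfonylurea receptor of a potassium channel that pericytes carry. KCNJ8 had 112 UMIs in 63 of the 110 cells at 3 months and 21 UMIs in 12 of the 24 at 6 months, against 5 UMIs in 3 of 248 stem-bearing members and none in 180. ABCC9 had 75 UMIs in 51 cells and 11 UMIs in 10 cells, against 1 and 0. Each gene was found in at most 0.633% of cells of the immune and endothelial gates in either library. EBF1, a transcription factor gene of mural cells, stood at 392 and 356 CPM against 1.5 and 0. HEYL, a Notch target gene, stood at 562 and 399 against 40.2 and 22. The Notch list as a whole did not follow it. Without its gate gene, HEYL and NOTCH1 were at least 2-fold higher at 3 months and HEY2, NOTCH2 and HEY1 lower, of 8 measured (median log2 ratio -0.89). At 6 months 3 of 9 were higher and 0 lower (median -0.22). In all, 12 of 12 measured pericyte genes were at least 2-fold higher than in stem-bearing members at 3 months and 5 of 6 at 6 months. RGS5, PDGFRB and NOTCH3 on that list are gate genes, and without them the counts were 9 of 9 and 4 of 4.

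Genes of mature smooth muscle were sparse, although 6 of 8 measured contractile genes outside the gate were at least 2-fold higher than in stem-bearing members at 3 months and 3 of 8 at 6 months. ACTA2 had 118 UMIs in 32 of 110 cells and 5 UMIs in 5 of 24. MYH11, the smooth muscle myosin, had 3 UMIs in 1 cell at 3 months and none at 6 months. CNN1 and ACTG2, a calponin and an actin of smooth muscle, had none in either library, which allows up to 11.6 CPM at 3 months and 42.7 at 6 months. DPT, a dermatopontin of fibroblast matrix, was likewise at 0 in both. CD34, found on adventitial fibroblasts elsewhere, had 1 UMI at 3 months. TOP2A, a gene of dividing cells, was found in 0 of 110 and 0 of 24 cells, which allows a share of up to 2.73% and 12.5% of cells with a UMI.

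Receptors, ligands and carriers of the same cells follow by role. EDNRA, the endothelin receptor of vascular muscle, had 70 UMIs in 49 of 110 cells at 3 months and 10 UMIs in 6 of 24 at 6 months, against 5 and 0 in the stem-bearing members. PTH1R, the receptor for parathyroid hormone and its related peptide, had 41 UMIs in 30 cells and 4 in 4. The sex steroid receptor genes ESR1 and PGR had none in either library at this depth. Among ligands, HGF had 58 UMIs in 40 cells and 10 in 8, and BMP5 had 61 in 44 and 13 in 11. Both ligands were also found in the endothelial gate, HGF in 15.0% and 13.3% of its cells and BMP5 in 9.69% and 6.32%. CXCL12, a chemokine of stromal cells, stood at 291 and 328 CPM, against 9.29 and 6.6 in stem-bearing members.

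Genes described for perivascular and meningeal fibroblasts were abundant. APOD, a lipid-binding lipocalin, had 729 UMIs in 78 of 110 cells (2830 CPM) and 262 in 17 of 24 (3730 CPM), against 18.6 and 0.22 CPM in the stem-bearing members. PTGDS, which makes prostaglandin D and is a marker of arachnoid cells in brain, stood at 3580 and 4770 CPM against 60.5 and 22.5. APOE, a lipid carrier, stood at 14800 and 18700 against 1230 and 1140. C7, the complement component, stood at 1120 and 1200 against 17.4 and 10.8. At least 6 of the 7 measured genes of this perivascular list were 2-fold higher in both libraries, and 11 of 15 and 11 of 17 of the complement and cytokine list.

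Transcription factor genes of the mesenchyme separated the sets in part. NR2F1 had 383 UMIs in 95 of 110 cells (1490 CPM) and 31 in 14 of 24 (442 CPM), against 7.19 and 3.96 CPM in stem-bearing members. TCF21, a factor of fibroblast and pericyte progenitors, had 74 UMIs in 41 cells and 9 in 5, against 3 and 0. TWIST1 was detected in 47 of 110 and 11 of 24 cells without stem markers and in 225 of 248 and 174 of 180 with them, at similar levels CPM (306 and 285, against 354 and 333). Of the whole list 7 of 10 measured genes were at least 2-fold higher at 3 months and 6 of 9 at 6 months.

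**Figure D3:**
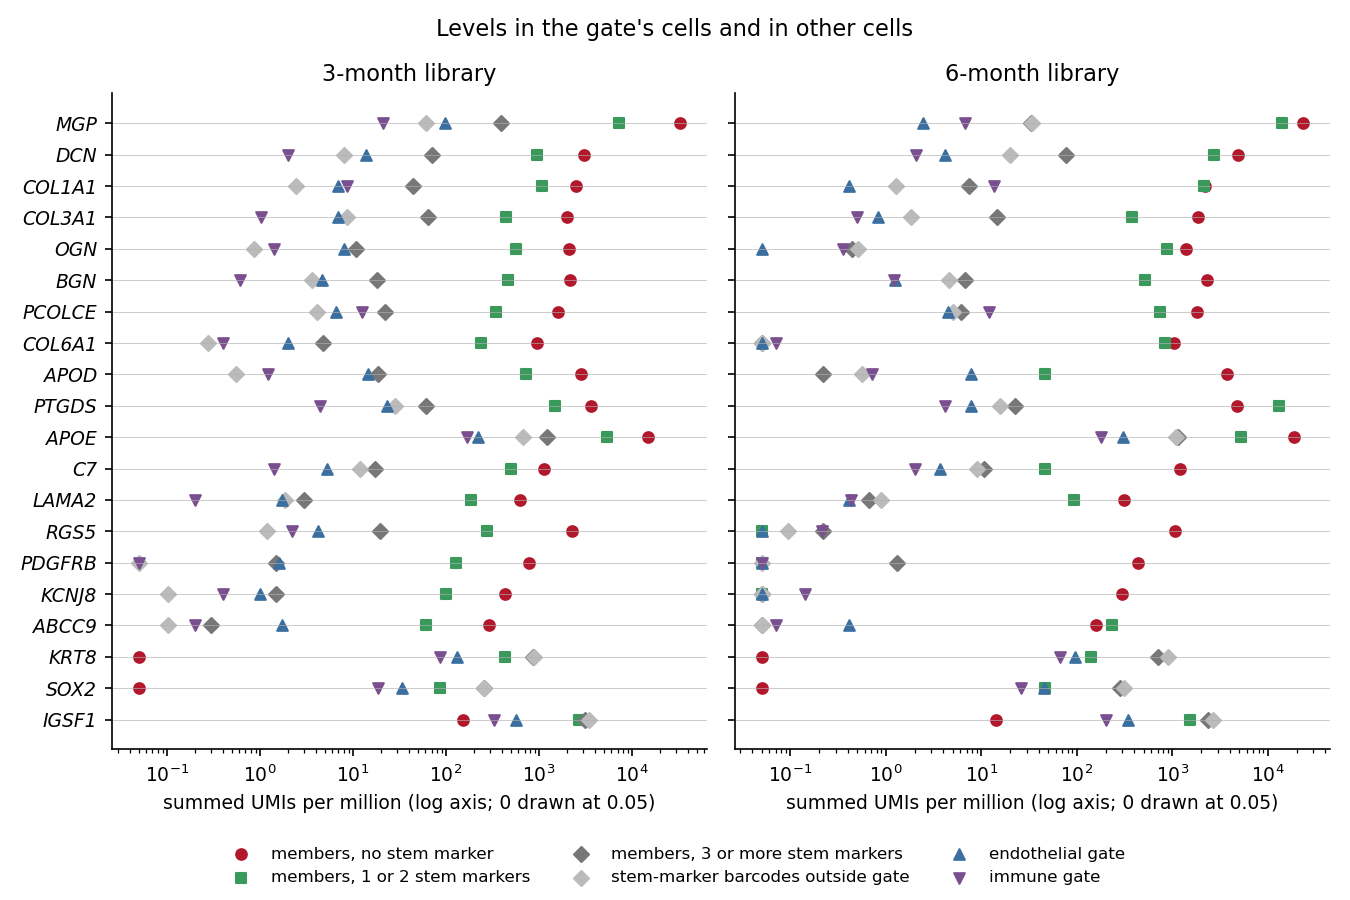
Summed CPM of 20 genes (log axis, 0 drawn at 0.05) in the members by number of stem markers, in stem-marker barcodes outside the gate and in the endothelial and immune gates, for each library. MGP, DCN and the genes down to ABCC9 lie furthest right in cells without stem markers, except that PTGDS and ABCC9 at 6 months are higher in the 4 cells with 1 or 2. DCN, COL1A1, COL3A1, RGS5 and PDGFRB are gate genes, so their place follows in part from the choice of cells. KRT8 and SOX2 are at 0 in cells without stem markers by the choice of cells, and IGSF1, which was not used in it, is lowest there.

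Within the cells without stem markers, the mural side was set against the fibroblast arm. This contrast is mainly one of double-positive cells with cells of the fibroblast arm alone. The ratio is mural side over fibroblast arm, on UMI totals. At 3 months 96 of 753 measured genes were at least 2-fold apart (12.7%), 70 of them higher on the mural side (9.3%) and 26 lower (3.45%). At 6 months 33 of 187 were (17.6%), 16 higher (8.56%) and 17 lower (9.09%). In the same direction in both libraries were 14 of 182 (7.69%), 9 higher on the mural side (4.95%) and 5 lower (2.75%). RGS5 and TAGLN among the higher and COL1A2 among the lower are gate genes.

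Some contractile and pericyte genes outside the gate were higher on the mural side at 3 months. MYL9, a myosin light chain that is not in the gate, had 22 UMIs in the fibroblast arm and 116 on the mural side, a log2 ratio of 1.08 (95% counting interval 0.41 to 1.81). TPM2, a tropomyosin, had 6 and 54 (1.85, 0.64 to 3.36). MCAM, an adhesion protein of pericytes, had 6 and 67 (2.16, 0.96 to 3.66). KCNJ8 had 16 and 96 (1.27, 0.49 to 2.13) and HEYL 20 and 125 (1.32, 0.64 to 2.08). Without the gate genes, which define the mural side, 3 of 8 measured pericyte genes and 3 of 7 contractile genes were at least 2-fold higher and none were lower, with median log2 ratios of 0.98 and 0.86 beside 0.04 over all measured genes. At 6 months RGS5 and TAGLN, both gate genes, were the genes of these lists that reached 50 UMIs.

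Of 9 measured basement membrane genes 2 were at least 2-fold higher on the mural side at 3 months. LAMC1, the laminin gamma chain, had 12 and 99 UMIs at 3 months (log2 ratio 1.72, 0.86 to 2.73), and COL4A1 had 59 and 305 (1.05, 0.64 to 1.48). At 6 months COL4A1 had 51 and 41 (0.56, -0.07 to 1.18). COL6A1 and COL6A2, neither of them in the gate, had ratios of -0.35 and -0.71 at 3 months and -0.93 and -0.92 at 6 months, all under 2-fold. COL12A1 was the 1 other measured collagen outside the gate, at 3 months, and it was at least 2-fold lower on the mural side. COL1A1, COL1A2 and COL3A1 define the fibroblast arm, so their lower level on the mural side follows from the rule. MGP was nearly even at 3 months (2215 and 6211 UMIs, 0.17) and lower on the mural side at 6 months (1169 and 462, -0.46). It thus marked the fibroblast arm and the mural side, which was mainly double-positive.

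The genes apart in both libraries were of several kinds. POSTN, a matricellular protein, had 30 UMIs in the fibroblast arm and 389 on the mural side at 3 months (log2 ratio 2.38) and 15 and 39 at 6 months (2.25); 1 cell held 92.3% of the last count. OTOS, a gene known from the inner ear, had 4 and 389 UMIs at 3 months (5.28, 3.92 to 7.17) and 29 and 47 at 6 months (1.57, 0.87 to 2.29). Its 389 UMIs lay in 26 of 77 cells, and 1 cell held 63.8% of the 47. JUNB, an immediate early gene, had ratios of 1.35 and 1.41, IRF1, an interferon-regulated factor, 1.93 and 2, and FABP5, a fatty acid binding protein, 3.51 (1.59 to 6.59) and 4.02 (2.8 to 5.53). C15H11orf96 had 101 and 963 UMIs at 3 months (1.93) and 37 and 76 at 6 months (1.91).

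On the fibroblast side stood DLK1, IGF2, GSN and RAMP2. DLK1, an imprinted gene that restrains differentiation of mesenchymal cells, had 152 UMIs in the 33 fibroblast-arm cells and 146 in the 77 mural-side cells at 3 months (log2 ratio -1.38, -1.72 to -1.04). At 6 months it had 134 and 7 (-3.38, -4.73 to -2.3), and 1 cell held 47.8% of the 134. IGF2, an imprinted growth factor, had 47 and 37 UMIs (-1.66, -2.33 to -1.01) and then 66 and 4 (-3.17, -5.09 to -1.75). GSN, which severs actin filaments, had 75 and 69 (-1.44) and 66 and 14 (-1.36). RAMP2, a partner of the adrenomedullin receptor, had 50 and 13 and then 42 and 9, but 1 cell held 56% and 66.7% of the fibroblast-arm counts. With the richest cell of each gene left out in each library, a choice made after seeing the data, 7 genes were 2-fold apart in the same direction in both libraries, JUNB, C15H11orf96 and DLK1 among them.

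**Figure D4:**
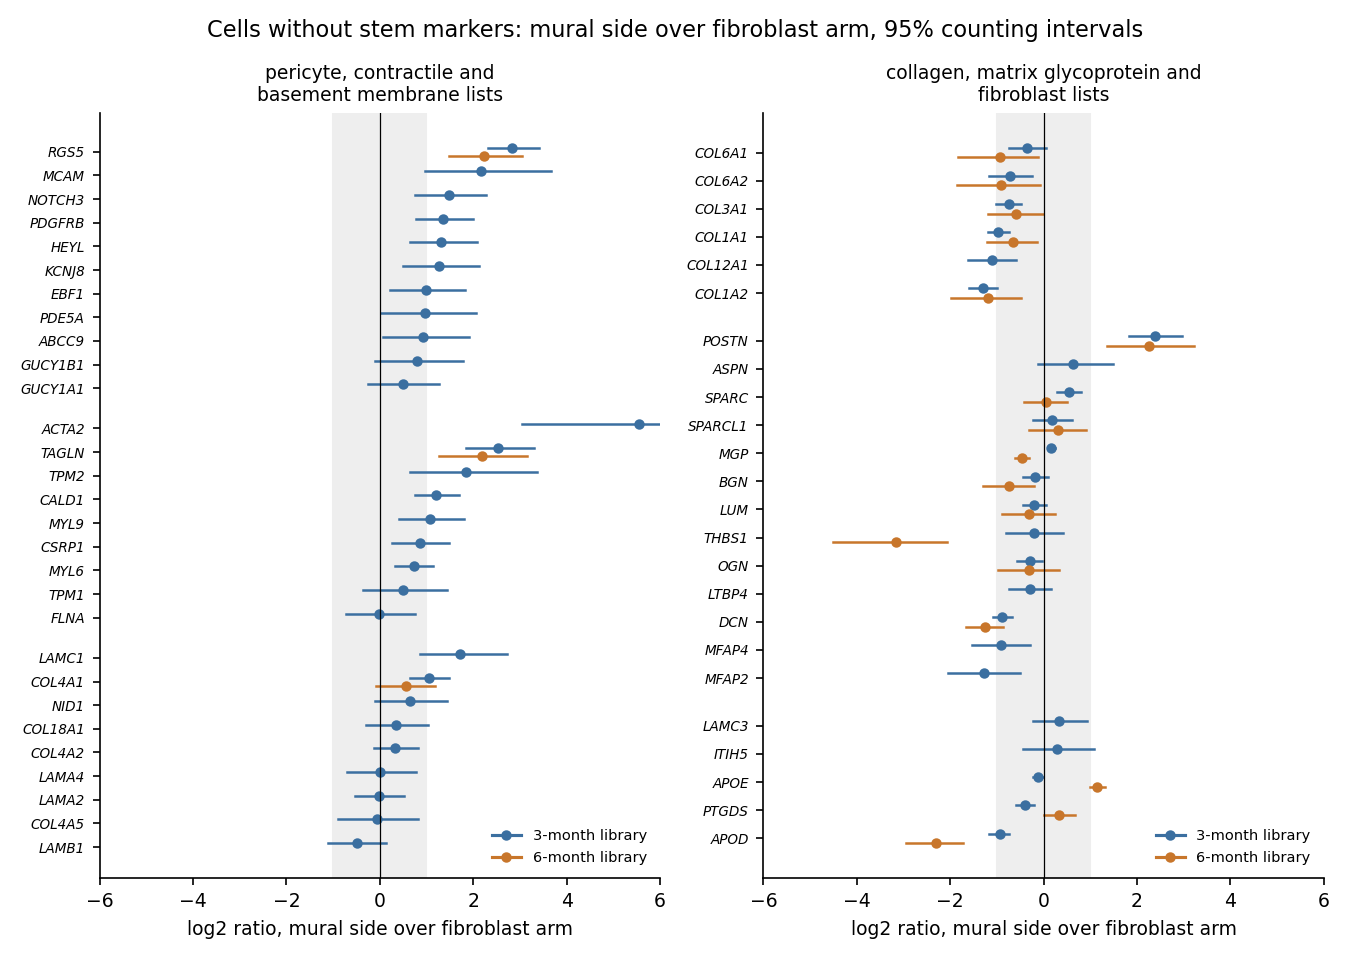
Log2 ratio of CPM on the mural side over the fibroblast arm in cells without stem markers, with 95% counting intervals (cut at -6 and 6) and a grey band for under 2-fold. Genes are grouped by list. The pericyte and contractile genes on the left lie mostly to the right of 0. These lists include the mural gate genes, whose place follows from the rule. At 6 months the genes drawn from these lists are RGS5 and TAGLN, both gate genes. The collagens on the right, 3 of which are gate genes, lie left of 0.

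The 48 and 4 members with 1 or 2 stem markers had levels of MGP, OGN and IGSF1 between the other sets at 3 months. MGP stood at 7190 CPM at 3 months and 14000 at 6 months, OGN at 568 and 887, and IGSF1 at 2670 and 1540. Summed endocrine markers, PRL and GH among them, were not between the other sets at 3 months. They stood at 30700 CPM, against 13100 without stem markers and 16400 in the stem-bearing members. Of these cells, 22 of the 48 and 1 of the 4 still passed the gate after thinning. Scrublet marked 4 of the 48 (8.33%), beside 5.63% of all kept barcodes at 3 months.

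The stem-bearing members were close to the stem-marker barcodes that did not pass the gate, 4004 at 3 months and 2105 at 6 months. Of 12717 measured genes 342 were at least 2-fold apart at 3 months (2.69%), 91 higher in the members (0.716%) and 251 lower (1.97%). At 6 months 253 of 12458 were (2.03%), 146 higher (1.17%) and 107 lower (0.859%). In the same direction in both libraries were 34 of 12249 (0.278%), 13 higher (0.106%) and 21 lower (0.171%). CGA, the alpha subunit of the glycoprotein hormones, was among the lower, at 960 CPM in members and 2260 outside at 3 months, and 375 and 859 at 6 months. At 6 months 11 of 21 measured cell cycle genes were at least 2-fold higher in the members (median log2 ratio 1.29), and none of 21 at 3 months; the difference between the libraries was not tested. TOP2A stood at 64.5 CPM in the 6-month members, in 16 of 180 cells. Depth moved with this result, since the members' median of 22767 UMIs compares with 6598 outside the gate, and its part was not tested.

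Taken by the gate alone, the mural arm differed from the fibroblast arm in interferon-stimulated genes. At 3 months 388 of 7741 measured genes were at least 2-fold apart (5.01%), 79 of them higher in the mural arm (1.02%) and 309 lower (3.99%). At 6 months 216 of 8585 were (2.52%). In the same direction in both libraries were 41 of 7532 (0.544%), 14 higher (0.186%) and 27 lower (0.358%). Of the interferon and MHC list 12 of 20 measured genes were higher in the mural arm at 3 months (median log2 ratio 1.1) and 12 of 22 at 6 months (1.04). RSAD2, an antiviral enzyme, had 35 UMIs in the fibroblast arm and 60 in the mural arm at 3 months (log2 ratio 3.37) and 18 and 57 at 6 months (2.81). A single cell of the mural arm held 71.7% and 75.4% of those UMIs. ISG15, a ubiquitin-like protein, had ratios of 1.64 and 1.78, and 1 mural-arm cell held 39.4% and 48.1% of its UMIs; without the richest cell of each arm the ratios were 1 and 1.08. With 4 of 6 markers required, the median of the list turned to -0.7 at 3 months and -0.52 at 6 months. PCOLCE, which assists collagen processing, was lower in the mural arm, with ratios of -2.44 and -2.3, but with double-positive cells counted in each arm the ratio at 3 months was 1.2. Since 30 of the 42 mural-arm cells at 3 months and 48 of the 49 at 6 months carried 3 or more stem markers, this contrast is mainly one within stem-bearing cells.

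The libraries were compared next, first in cells without stem markers, as 6-month over 3-month library. The share of kept barcodes was 0.672% (0.553 to 0.809%) at 3 months and 0.181% (0.116 to 0.269%) at 6 months. With 1000 genes and 2000 UMIs required of each barcode the shares were 0.364% and 0.0947%. Over all these cells 123 of 982 measured genes were at least 2-fold apart (12.5%), 44 higher at 6 months (4.48%) and 79 lower (8.04%), with a median log2 ratio of -0.06.

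None of 5 measured collagens outside the gate was 2-fold apart between the libraries, and their median log2 ratio was 0.12. The gate genes among the collagens, which admitted cells in both libraries, are given as a description. COL1A1 had 638 UMIs in 110 cells and 156 in 24, a ratio of -0.16 (-0.42 to 0.1). COL1A2 had 381 and 104, a ratio of 0 (-0.32 to 0.32), and COL3A1 515 and 132 (-0.09, -0.37 to 0.19). The collagen VI chain gene COL6A2 had 174 and 67 (0.5, 0.07 to 0.91). These intervals all stay under 2-fold.

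Of 9 measured contractile genes 5 were at least 2-fold lower in the 6-month library (median log2 ratio -1.09), in which 9 of 24 cells were on the mural side, against 77 of 110 at 3 months. Without the gate genes 4 of 7 were, FLNA, TPM2, TPM1 and MYL6. Of 13 pericyte genes NOTCH3, MCAM and RGS5 were lower (median -0.54), and without the gate genes NOTCH3 and RGS5 this was 1 of 10. ACTA2, also a gate gene, had 118 and 5 UMIs, a ratio of -2.68 (-4.33 to -1.42). Within the mural side 4 of 9 contractile genes were lower (median -0.86), and 2 of 12 pericyte genes (median -0.55), beside -0.11 over 598 measured genes, of which 105 were 2-fold apart (17.6%), 28 higher (4.68%) and 77 lower (12.9%). Without the gate genes these were 3 of 7 contractile genes, FLNA, MYL9 and MYL6, and 1 of 9 pericyte genes, GUCY1A1. There ACTA2 had 117 and 4 UMIs (-1.98, -3.88 to -0.58), while RGS5 had 553 and 54 (-0.46, -0.89 to -0.06) and TAGLN 260 and 37 (0.08, -0.46 to 0.58). The 9 cells of the 6-month mural side set the limit of these values. They also depend on the scaling, which was on UMI totals. The factors of TMM, the scaling used for the arms by rule, were 1.201 and 2.012 on the mural side. TMM would thus lower every ratio between libraries there, and with it 262 genes were 2-fold apart.

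In the fibroblast arm 36 of 295 measured genes were at least 2-fold apart (12.2%), 18 in each direction (6.1%), with a median log2 ratio of 0.02. C1R, a protease that starts the classical complement pathway, had 56 UMIs in 33 cells and 103 in 15 (log2 ratio 1.58, 1.09 to 2.07). SERPING1, its inhibitor, had 54 and 103 (1.63, 1.14 to 2.13). These were 2 of 5 measured genes of the complement and cytokine list; C1S, a protease that acts with C1R, had 63 and 72 (0.89, 0.38 to 1.4), C7 had 78 and 59 (0.3, -0.22 to 0.8), and CXCL10 had 33 and 31 (0.61, -0.15 to 1.36). B2M, the light chain of MHC class I, had 155 and 260 (1.45, 1.15 to 1.74), and a second listed gene of that symbol had 285 and 416 (1.24, 1.02 to 1.47). Of the interferon and MHC list B2M was the 1 gene higher and IFI6 the 1 lower, of 3 measured. Without their richest cells C1R, SERPING1 and the B2M entries had ratios of 1.23, 1.33, 1.26 and 1.02. On the mural side they were under 2-fold on UMI totals, at 0.42 for C1R, 0.46 for SERPING1 and 0.34 for B2M. TMM scaling would lower these 3 ratios. The difference between the arms was not tested. B2M was also higher at 6 months in the endothelial gate, at 6910 and 11100 CPM, and in the immune gate, at 5180 and 7890.

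Other genes were higher in the fibroblast arm of the 6-month library. THBS1, a matricellular glycoprotein, had 35 UMIs at 3 months and 114 at 6 months (log2 ratio 2.4, 1.84 to 2.99). On the mural side THBS1 had 76 and 7 (-0.55, -1.91 to 0.57). With at least 1000 genes and 2000 UMIs required of each cell, THBS1 over all cells without stem markers turned from 2 to -1.34. IGF2 had 47 and 66 UMIs (1.19, 0.63 to 1.76).

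KLF2, IFI6 and NR2F1 were lower at 6 months in the fibroblast arm and on the mural side. KLF2, a factor that responds to flow and to dissociation, had 82 and 11 UMIs in the fibroblast arm (-2.2, -3.26 to -1.28) and 361 and 5 on the mural side (-3.28, -4.91 to -2.04). IFI6, an interferon-stimulated gene, had 332 and 44 (-2.22, -2.7 to -1.76) and 908 and 33 (-1.89, -2.44 to -1.39). NR2F1 had 75 and 15 (-1.62, -2.53 to -0.81) and 308 and 16 (-1.37, -2.2 to -0.65). KLF2 and IFI6 were lower at 6 months in other cells too: in the immune gate KLF2 stood at 1610 and 271 CPM and IFI6 at 3030 and 535. NR2F1 stood at 10.4 and 11.9 in the endothelial gate and at 5.09 and 5.03 in stem-marker barcodes outside the gate. HSPA6, a heat shock gene, had 72 and 1 UMIs in the fibroblast arm (-5.47, -10.79 to -2.95), and IGFBP5, which binds insulin-like growth factors, had 567 and 172 (-1.02, -1.28 to -0.77).

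Higher on the mural side of the 6-month library were CA3, CP and FABP5 among others, and APOE. CA3, a carbonic anhydrase, had 0 and 56 UMIs, all 56 in 1 cell, and CP, a copper-carrying ferroxidase, had 32 and 56, 96.4% of the latter in 1 cell. APOE had 2655 and 720 UMIs (log2 ratio 1.01, 0.89 to 1.13), and without its richest cell in each library the ratio was -0.22.

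**Figure D5:**
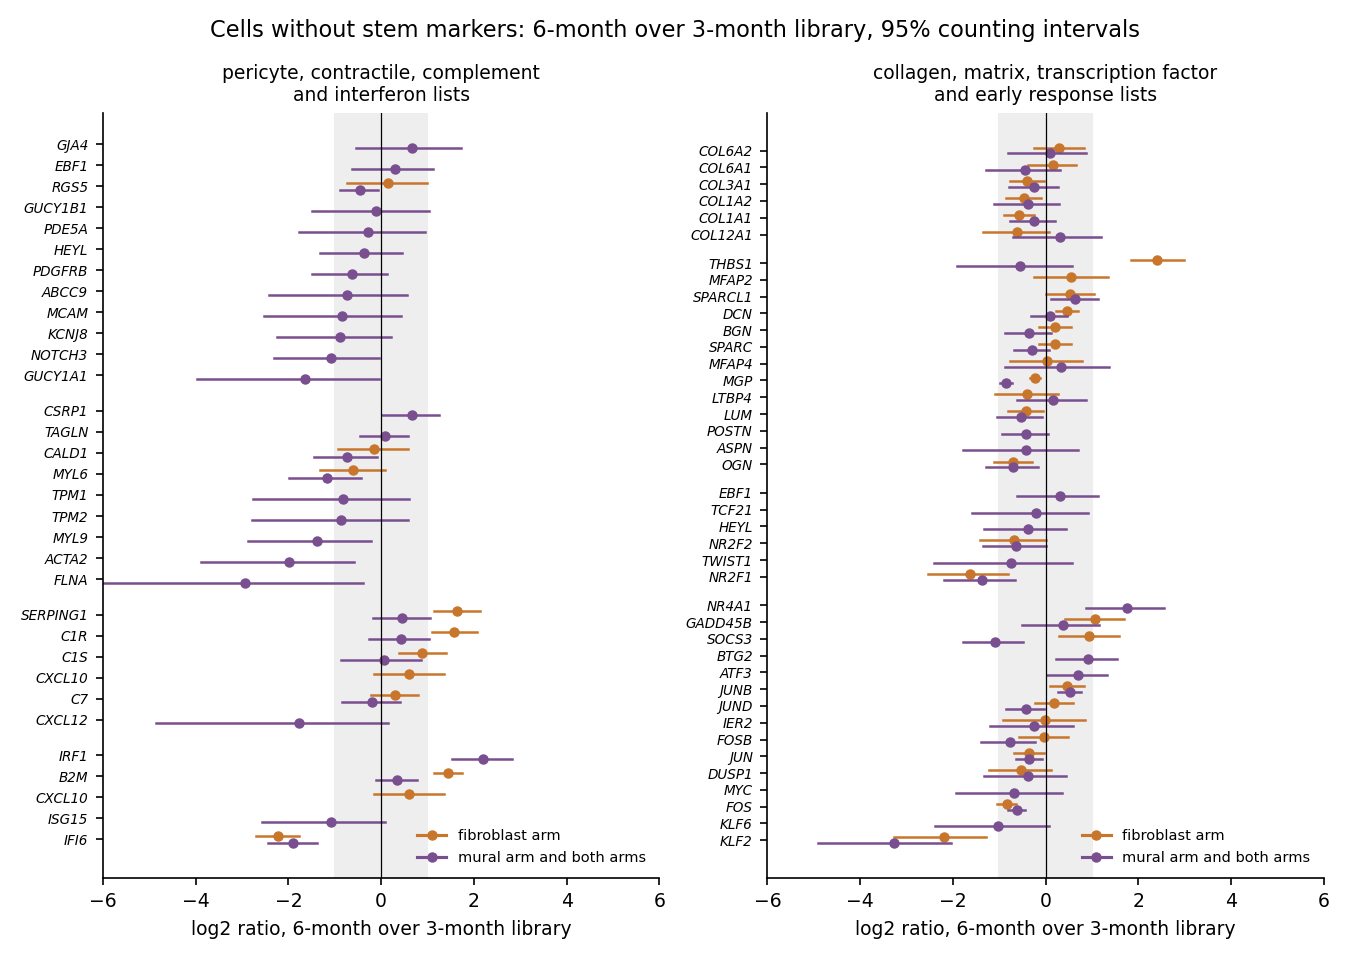
Log2 ratio of CPM in the 6-month over the 3-month library for cells without stem markers, in the fibroblast arm and on the mural side, with 95% counting intervals (cut at -6 and 6) and a grey band for under 2-fold; a gene is drawn for a set in which it had 50 UMIs. Collagens lie within the band, ACTA2, KLF2, IFI6 and NR2F1 to its left, and C1R and SERPING1 of the fibroblast arm to its right.

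Taken by the gate alone, the arms showed other genes between the libraries. In the fibroblast arm 669 of 9585 measured genes were apart (6.98%), 426 higher at 6 months (4.44%) and 243 lower (2.54%). PTX3, a pentraxin of innate immunity, had 3 and 97 UMIs (log2 ratio 5.02, 3.43 to 7.32), IRF1 172 and 1469 (3.1) and HBEGF, an epidermal growth factor ligand, 136 and 1055 (2.96). HES5, a Notch target, had 220 and 13 (-4.08), and POSTN 570 and 116 (-2.29). Of 9 measured collagens COL3A1, COL1A1, COL1A2 and COL16A1 were at least 2-fold lower, while in the fibroblast-arm cells without stem markers none of 6 was. The first 3 are gate genes. Without the gate genes 1 of 6 measured collagens, COL16A1, was lower in the arm, and 0 of 3 in its cells without stem markers. Fibroblast-arm cells with 3 or more stem markers were 203 of the 272 at 3 months and 121 of the 140 at 6 months.

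In the mural arm 437 of 5286 measured genes were apart (8.27%), 332 higher at 6 months (6.28%) and 105 lower (1.99%). CXCL10, a chemokine induced by interferon gamma, had 1 UMI at 3 months and 607 at 6 months, the latter in 12 of 49 cells (log2 ratio 7.81, 5.32 to 13.11). It was higher in other cells too, at 22.2 and 2070 CPM in the endothelial gate and 382 and 1730 in the immune gate. UBE2C and TOP2A, genes of dividing cells, had no UMI in the 42 cells at 3 months and 145 and 125 at 6 months, log2 ratios of at least 4.16 and 3.94 against a floor of 3 counts. These lay in 5 and 6 of the 49 cells. MGP had 321 and 110 UMIs (-2.98) and RGS5 46 and 10 (-3.64); 12 and 1 cells of the arm had fewer than 3 stem markers.

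In the cells that met both conditions 454 of 2797 measured genes were apart (16.2%), 143 higher at 6 months (5.11%) and 311 lower (11.1%). All 13 measured pericyte genes were at least 2-fold lower there (median log2 ratio -3.36), as were all 6 collagens (-3.31). RGS5, PDGFRB, NOTCH3, COL1A1, COL1A2 and COL3A1 among them are gate genes. Without these, 10 of 10 pericyte genes (-3.25) and 3 of 3 collagens (-3.34) were lower. The share of cells without stem markers in this set was 73 of 97 at 3 months and 8 of 19 at 6 months. KLF2 had 452 and 16 UMIs (-4.97), MGP 8035 and 456 (-4.29) and APOD 527 and 26 (-4.49). Within the stem-bearing members of all arms 754 of 10406 genes were apart (7.25%), 546 of them higher at 6 months (5.25%) and 208 lower (2.0%), CXCL10 with 6 and 843 UMIs (6.69) and MGP with 1288 and 149 (-3.56) among them.

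The libraries held 142479651 and 175239612 UMIs in 18961 and 15031 barcodes. They shared 81 barcode sequences, and 3 members in each library had such a sequence. The limits on endothelial genes kept 16 and 6 barcodes with arm markers out of the gate, and the limits on hormone genes 40 and 25.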

How the data were processed

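Per the labels' protocols, anterior lobes were digested with type IV collagenase and single-cell libraries were made by a droplet method. What the authors deposited is 1 matrix of unnormalised UMI counts for each age. Cell Ranger is named with version 5.0.0 in the submitters' processing notes and 5.0.1 in the matrix header. The genome build is not given in the sources used here. Of 23141 features 22726 were matched to a gene table (98.2%), and 447 placeholder symbols were replaced by it.

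A barcode had to hold 500 genes and 1000 UMIs or more. The members and the 22 gene lists were chosen with earlier results of these data known. Summed counts were scaled to a total of 1000000 (CPM), with TMM factors (edgeR 4.0.16, R 4.3.3) for the arms by rule and on UMI totals for the sets split by stem markers. Genes with 50 or more summed UMIs counted as measured and 2-fold differences as apart. Ratios carry exact conditional binomial 95% intervals, and a count of 0 was set at a floor of 3. Cells were thinned to 1000 UMIs with a fixed seed. Doublets were marked by Scrublet (scanpy 1.11.5) and kept, 922 of the barcodes at 3 months and 570 at 6 months. The scripts were tested on simulated data. With 1 library per age no test was run. Genes were named if in the gate or lists, or, per comparison, as up to 12 measured genes per direction past 2-fold, ordered by the interval bound nearer 0, with a UMI in 10% of cells between libraries or 20% between arms. CXCL10 and B2M in other cells, and the shares held by 1 cell, were looked up after the values were seen. Some genes are not reported here. A search of promoters for motifs was planned and not run. There were 9 planned and 3 added alternatives.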

Additional observations from a re-analysis of the deposited data

Results flagged for a closer look

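Between the arms taken by the gate alone, 3 genes had ratios of mural over fibroblast arm that pointed in opposite directions in the libraries. The difference between the libraries was not tested.

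TSHB, the beta subunit of thyrotropin, had a log2 ratio of 7.71 at 3 months and -1.83 at 6 months. At 3 months all 762 UMIs of the mural arm lay in 1 of 42 cells, against 22 UMIs in the fibroblast arm. At 6 months 81 of the 87 UMIs of the fibroblast arm lay in 1 cell (93.1%).

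GH, growth hormone, had a log2 ratio of -1.78 at 3 months and 1.94 at 6 months. A single fibroblast-arm cell held 50.8% of that arm's UMIs at 3 months, and a single mural-arm cell held 78.4% at 6 months.

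UBE2C, an enzyme of mitotic exit, had a log2 ratio of -1.63 or lower at 3 months, against a floor of 3 counts in the mural arm, and 1.67 at 6 months. At 3 months it had 56 UMIs in 12 of 272 fibroblast-arm cells and none in 42 mural-arm cells. At 6 months it had 101 UMIs in 9 of 140 cells and 145 in 5 of 49.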

How the results depend on the processing

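No paired analysis was possible because each age is 1 library. Of 2481 list medians under an alternative 2225 stayed within the counting interval of the main value, 249 moved and 7 reversed. For 2078 ratios of named genes these numbers were 1740, 326 and 12. Genes no longer measured under an alternative were not counted. For the arms by rule, 9 of 40 medians and 1 of 20 genes stayed without cells that carried markers of other types. With 4 of 6 markers 26 of 59 medians and 5 of 29 genes of these arms stayed. The 3 alternatives (TMM factors, fewer than 3 stem markers, the richest cell left out) were chosen after seeing the data.

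Counts of genes 2-fold apart are given in the order fibroblast arm, mural arm, then without stem markers the fibroblast arm, mural side and all cells, then stem-bearing members between libraries, the arms in both libraries, the arms without stem markers, stem-bearing members against barcodes outside, and members without against with stem markers. With 10 UMIs they were 1642, 1816, 527, 955, 1284, 1673, 149, 74, 147 and 2030, and with 200 UMIs 252, 86, 6, 13, 25, 303, 12, 1, 15 and 416. By mean of per-cell levels the mural arm had 661, the arms 68 and stem-bearing members against outside 68. With 1000 genes and 2000 UMIs, cells in both arms at 3 months were 0.423% of barcodes, cells without stem markers 0.364% and 0.0947%, and the arms without stem markers had 6 genes. With 4 of 6 markers the fibroblast arm was 0.415% and 0.264% and the mural arm 0.0367% and 0.00755%, with 394, 32, 369, 312, 9, 131 and 363 genes for the fibroblast arm, mural arm, stem-bearing members, arms, arms without stem markers, members against outside and members without against with stem markers. With double-positive cells in each arm the fibroblast arm at 3 months was 2.25% and the mural arm 0.849% and 0.513%, with 691 genes in the mural arm, 135 in the fibroblast arm without stem markers, 14 between arms and 1 without stem markers. Without cells that carried markers of other types the fibroblast arm was 0.403% and 0.143%, the mural arm 0.0672% and 0.00755%, both arms at 6 months 0.0604%, with 127 and 93 genes. TMM gave 262 genes on the mural side. With fewer than 3 stem markers the share was 0.965% at 3 months, with 126 genes in the fibroblast arm and 212 in all. Without the richest cells the mural side had 172 and the arms without stem markers 7.

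Reversed were, members without over with stem markers, the medians of adhesion at 3 months (-0.15, 200 UMIs), mesenchymal factors at 6 months (-0.22, 200 UMIs, and -0.18, 4 of 6) and receptors at 6 months (-0.18, fewer than 3 stem markers). Between arms the interferon median (-0.7 and -0.52), ISG15 at 3 months (-0.16), TAP1 (-0.15) and PSMB9 (-0.52) at 6 months reversed with 4 of 6. The collagen median (0.81), PCOLCE (1.2), PTGDS (1.11) and APOE (0.72) at 3 months reversed with double-positive cells in each arm. Between libraries THBS1 over all cells without stem markers (-1.34, 1000 genes and 2000 UMIs), ISG15 in the fibroblast arm (0.11) and C15H11orf96 in the mural arm (0.28) without cells of other markers reversed, as did, without the richest cell, APOE (-0.22) and HSPA1A (-0.37) on the mural side and IFIH1 between arms at 3 months (-0.16). The causes were not tested. The cells without stem markers number 24 in the 6-month library, which limits the precision of their values.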
